A study of Mus musculus with 84 samples.

Results

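The 10 genes described here encode enzymes that oxidise ethanol and aldehydes or that use the acetate formed from them: Adh5, Aldh1a1, Aldh2, Aldh3a2, Aldh5a1, Aldh7a1, Aldh9a1, Cat, Cyp2e1 and Acss2. They were chosen by symbol. All 10 were found among the 43629 genes of the deposited count table, each at 1 Ensembl identifier. Bulk RNA sequencing was done on the ventrolateral striatum of 84 adult mice, of which 44 were labelled High Drinker (21 females, 23 males) and 40 were labelled Low Drinker (18 females, 22 males). All mice were naive, with no treatment, so the comparison is between lines and not between exposed and unexposed animals. The series' design text names SOT and NOT mice of selection generation 4 (S4), and the labels used here do not say which of these names goes with which drinking label. Families and replicate lines are not given either, so the tests treat animals as independent.

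Ethanol is oxidised to acetaldehyde, acetaldehyde to acetate, and acetate is joined to coenzyme A. In liver the first step is carried mainly by alcohol dehydrogenases, with cytochrome P450 2E1 as a further route. In brain, catalase and cytochrome P450 2E1 are the routes usually discussed, because the main liver alcohol dehydrogenase is scarce there. The aldehyde dehydrogenases also have work that has nothing to do with ethanol, including the breakdown of the transmitter GABA and of lysine, the handling of fatty aldehydes, and the making of retinoic acid and carnitine.

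Total counts per library ran between 22190363 and 41300401 in High Drinker mice (median 31877407) and between 27561410 and 35941404 in Low Drinker mice. At these depths 9 of the 10 genes had at least 339 reads in every library, so counting error was small beside the spread between animals. Levels are CPM, counts scaled to library size after TMM normalisation. The numbers that end the sample titles run in 3 sets, here called sheet sets, of 48, 30 and 6 libraries, and sheet set and sex were terms of the models. Set 1 held 30 High Drinker and 18 Low Drinker libraries, set 2 held 11 and 19, and set 3 held 3 of each. High Drinker 17 and Low Drinker 8, 32, 33 and 34 stood apart from the rest: their median correlation with the other libraries was 0.956 to 0.961, against 0.968 or more in the other 79 libraries. All 15 markers of medium spiny neurons, the main striatal cell type, passed the filter on low counts. So did all 8 markers of cortical glutamatergic neurons, so passing the filter does not check the labelled tissue. The summed level of the medium spiny markers ran between 959 and 15168 CPM in High Drinker libraries and between 657 and 12714 CPM in Low Drinker libraries. It thus varied widely within both lines. Summed markers of cortical glutamatergic neurons ran between 144 and 2901 CPM in High Drinker libraries and between 404 and 3474 CPM in Low Drinker libraries.

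The upstream flanks of the 3 genes on which most of what follows turns are shown first. These are Cat, the member that passed the line test, though close to the threshold, and Acss2 and Aldh5a1, which moved most strongly against each other. The sequences are from RefSeq (build GRCm38.p6), 5′ to 3′ on the gene's strand, and end just before the gene's start. Capitals mark CCAAT and GGGCGG on either strand (ATTGG and CCGCCC on the other), the short letters bound by NF-Y and by Sp1-type factors, and no marked matches overlap.
Cat, chr2:103485161-103485403, minus strand: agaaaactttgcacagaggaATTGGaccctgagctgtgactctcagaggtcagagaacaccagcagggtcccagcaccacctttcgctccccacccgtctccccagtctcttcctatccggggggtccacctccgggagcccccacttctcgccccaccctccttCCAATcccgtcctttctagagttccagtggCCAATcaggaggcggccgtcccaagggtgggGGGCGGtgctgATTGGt
Acss2, chr2:155517793-155517947, plus strand: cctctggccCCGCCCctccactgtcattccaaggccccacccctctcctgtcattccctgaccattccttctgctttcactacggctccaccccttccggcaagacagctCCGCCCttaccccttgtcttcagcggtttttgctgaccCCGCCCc
Aldh5a1, chr13:24937662-24937911, minus strand: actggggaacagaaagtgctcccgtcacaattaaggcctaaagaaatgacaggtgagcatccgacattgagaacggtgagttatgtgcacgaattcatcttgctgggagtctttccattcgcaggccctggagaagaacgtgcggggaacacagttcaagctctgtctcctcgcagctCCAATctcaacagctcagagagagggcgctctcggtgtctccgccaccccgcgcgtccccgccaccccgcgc
These 243 bases before Cat hold 4 matches to CCAAT and 1 to GGGCGG. The 155 bases before Acss2 hold 0 matches to CCAAT and 3 to GGGCGG, and the 250 bases before Aldh5a1 hold 1 and 0. In the full RefSeq window of 300 bases around the start (250 before and 50 after), Cat had 4 and 1 matches, Acss2 had 1 and 5, and Aldh5a1 had 1 and 0. Over the same window of all 32851 mouse promoters in the table, 37.4% held CCAAT and 35.7% held GGGCGG. Of the 8 members matched in that table, Adh5 was the exception in lacking CCAAT, and the letters TATAAA were present in Cyp2e1 but in none of the other matched members, against 13.6% of all promoters. A match describes these letters and is not evidence of binding.

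The order of levels was set by length-normalised values, CPM per kilobase of exon. Aldh5a1, succinic semialdehyde dehydrogenase of the GABA pathway, was highest at 21.6 ± 2.70 CPM per kilobase (SD, n = 84). Adh5, the formaldehyde-oxidising class III alcohol dehydrogenase, had 16.9 ± 1.29, Aldh2, the mitochondrial acetaldehyde dehydrogenase, had 16.1 ± 1.71, and catalase had 15.9 ± 1.54 CPM per kilobase. Aldh1a1 came below them at 14.2 ± 5.36 CPM per kilobase. Aldh7a1, an enzyme of lysine breakdown, had 11.5 ± 2.34 CPM per kilobase, and Aldh3a2, the fatty aldehyde dehydrogenase, had 9.69 ± 0.842. Aldh9a1, an enzyme of carnitine synthesis, followed at 8.43 ± 0.926 CPM per kilobase. By this measure Acss2, the acetyl-CoA synthetase of cytosol and nucleus, was the lowest of the 9 readily counted genes at 5.68 ± 0.818. The divisor is the length of all annotated exons, 10163 bases for Acss2, the longest of the members. A gene whose expressed transcripts are shorter than that is placed too low. Before division by length Acss2 averaged 57.7 CPM, and Aldh9a1 was the lowest of the 9 at 28.5 CPM. Between Adh5 and Aldh3a2, each gene differed from the next in the order by less than the wider SD of the pair. The steps between Aldh5a1 and Adh5, between Aldh3a2 and Aldh9a1 and between Aldh9a1 and Acss2 were wider than either SD.

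**Figure D1:**
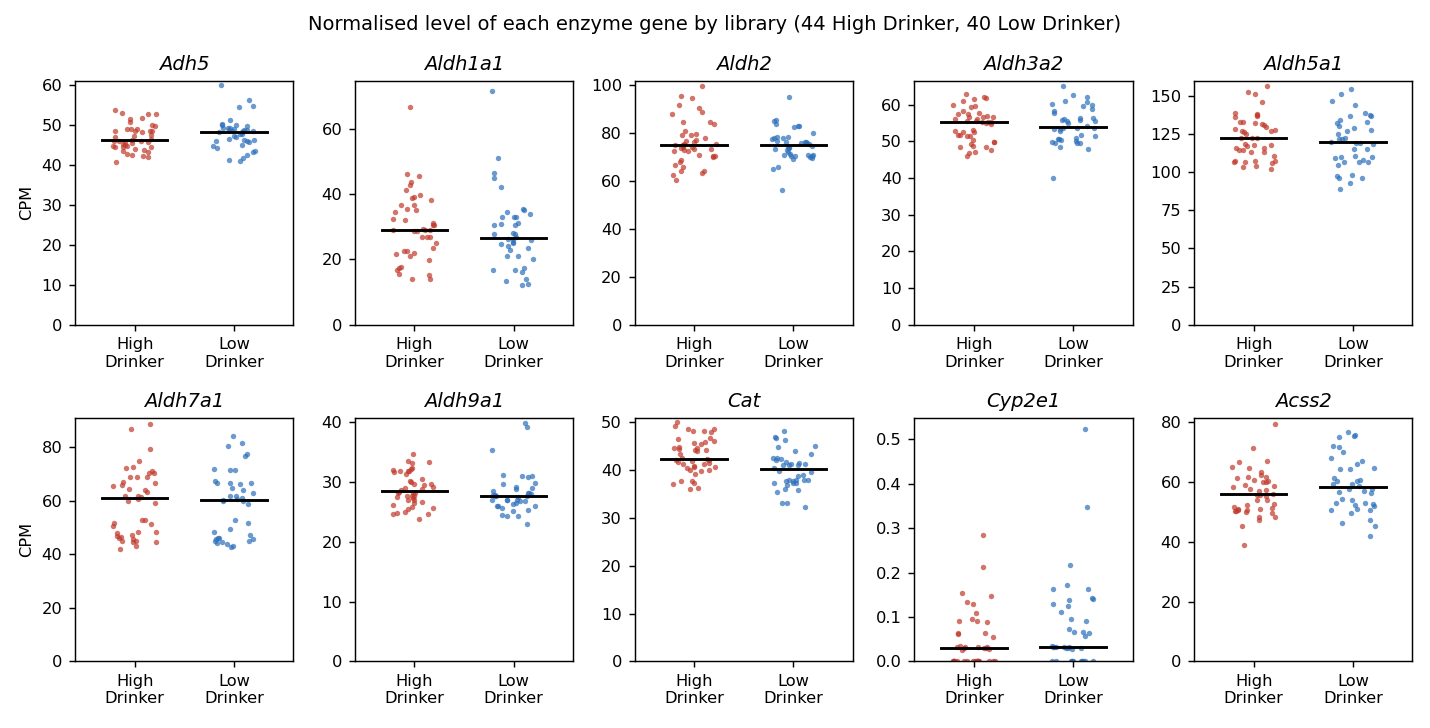
Levels of the 10 enzyme genes in CPM (vertical axes, each starting at 0), 1 point per library, High Drinker in red on the left and Low Drinker in blue on the right of each panel, with the group median as a bar. The groups overlap in every panel. Aldh1a1 spreads most of the readily counted genes, and Cyp2e1 stays at or below 0.523 CPM in all libraries.

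Cyp2e1, the ethanol-oxidising cytochrome P450, was close to undetected. It had 168 reads in all 84 libraries together, 67 in High Drinker and 101 in Low Drinker libraries, and no read in 19 of 44 High Drinker and 11 of 40 Low Drinker libraries. It exceeded 3 reads in 6 High Drinker libraries, with a highest count of 9, and in 11 Low Drinker libraries, with a highest count of 17. A count of 0 allows a level of up to 3 reads, which is 0.0743 to 0.161 CPM depending on the library; this limit covers counting error only. The gene did not pass the filter on low counts, and a line difference was not detectable at this depth, so no fold change is given.

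The 9 genes that passed the filter were set between lines first. Catalase, the peroxisomal enzyme that breaks down hydrogen peroxide and can oxidise ethanol with it, was the member whose difference passed the test. Its level was 36.1 CPM in the lowest, 42.4 in the median and 50.1 in the highest High Drinker library, against 32.3, 40.2 and 48.2 CPM in Low Drinker libraries. The groups overlapped over most of their range, and 34 of 44 High Drinker libraries exceeded the median of Low Drinker libraries. Cat averaged 42.98 ± 3.71 CPM in High Drinker mice (SD, n = 44) and 40.1 ± 3.86 CPM in Low Drinker mice (SD, n = 40). The log2 fold change of High Drinker over Low Drinker was 0.10 (SE 0.030), which is 7.12% higher with a 95% interval of 2.78% to 11.6%. edgeR's quasi-likelihood test gave an adjusted p of 0.0413 (Benjamini-Hochberg over 16537 genes). Among all tested genes 3.94% passed this threshold, 1.74% with higher and 2.2% with lower levels in High Drinker mice, so 1 call among 9 enzymes is to be read against that share.

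The catalase call lay close to the threshold. Without the 5 libraries that stood apart, the log2 fold change was 0.10 with an adjusted p of 0.0730, and Low Drinker 32 and 33, at 32.3 and 33.2 CPM, were among the lowest values. In sheet set 1 Cat averaged 42.7 ± 3.92 CPM in High Drinker mice, against 40.4 ± 3.47 CPM in Low Drinker mice, and in sheet set 2 the means were 44.1 ± 3.33 and 39.2 ± 4.18 CPM. Within the sets the adjusted p was 0.328 and 0.419. In sheet set 3, with 3 mice in each line, the order was the other way, at 41.7 ± 2.41 CPM in High Drinker mice, against 43.1 ± 2.94 CPM in Low Drinker mice. In females Cat averaged 42.9 ± 3.77 CPM in High Drinker mice, against 41.6 ± 3.19 CPM in Low Drinker mice, and in males 43.03 ± 3.74 and 38.8 ± 3.98 CPM. The difference of these line effects, female minus male, was -0.10 on the log2 scale (SE 0.0585, unadjusted p = 0.0813 and adjusted p = 0.774 by edgeR), so the sexes were not shown to differ.

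None of the other 8 enzymes passed the line test, and the intervals bound how large a difference these data leave room for. Adh5 had 40.6 CPM in the lowest, 46.2 in the median and 53.7 in the highest High Drinker library, against 40.8, 48.3 and 59.95 CPM in Low Drinker libraries, and its 95% interval ran between -5.87% and 0.604%. For Aldh2, the enzyme with the best known role in acetaldehyde removal, the values were 60.2, 74.7 and 99.4 CPM in High Drinker libraries, against 56.3, 74.9 and 94.9 CPM in Low Drinker libraries. The medians of Aldh2 were nearly the same, and its interval ran between -3.86% and 5.40%. Aldh3a2 had an interval of -3.60% to 4.51%, Aldh5a1 of -3.83% to 6.77%, Aldh9a1 of -2.26% to 6.86% and Acss2 of -7.76% to 3.91%. The intervals of Aldh7a1, at -9.22% to 8.63%, and of Aldh1a1, at -9.27% to 23.8%, were wider. A p above the threshold does not show that the lines are alike in these enzymes.

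**Figure D2:**
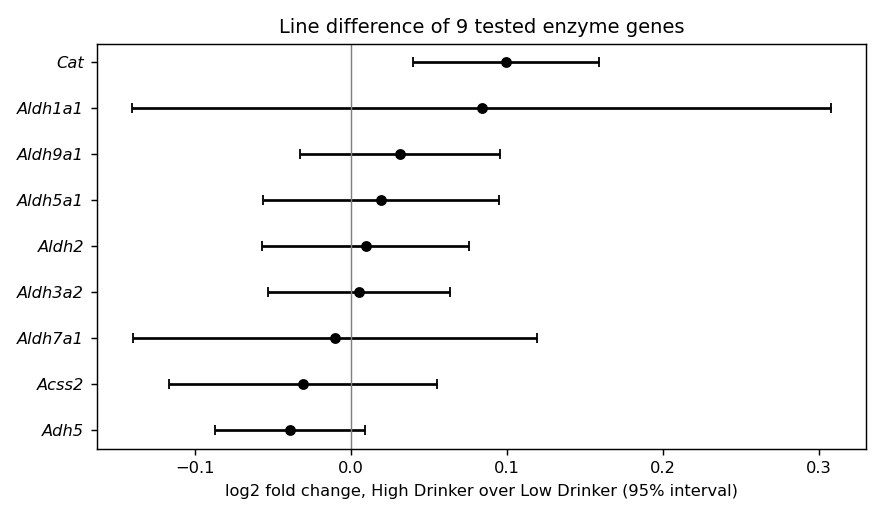
Log2 fold change of High Drinker over Low Drinker (horizontal axis) for the 9 tested enzymes, points with 95% intervals from the edgeR fit over 84 libraries. The interval of Cat, 0.04 to 0.16, lies above 0, and those of the other 8 enzymes cross it.

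Aldh1a1, which makes retinoic acid from retinaldehyde, varied most among the tested members. It had 13.9 CPM in the lowest, 29.02 in the median and 66.6 in the highest High Drinker library, against 12.2, 26.7 and 71.7 CPM in Low Drinker libraries. The lowest and the highest value of all 84 libraries, Low Drinker 1 and Low Drinker 2, both came from Low Drinker mice of sheet set 3 and differed 5.86-fold. Its coefficient of variation was 37.7%, against a median of 13.2% among the 4922 tested genes within 2-fold of its level, of which 95.1% varied less. Aldh7a1 came next at 20.5%, above 82.8% of genes of like level, and Adh5 was the steadiest at 7.64%, above 9.73% of them. The other 6 lay between 8.69% (Aldh3a2) and 14.4% (Acss2). In females Aldh1a1 averaged 32.3 ± 11.9 CPM (n = 39) and in males 26.5 ± 9.56 CPM (n = 45), a log2 difference of 0.23 with an adjusted p of 1 by edgeR (unadjusted p = 0.0507). No enzyme passed the sex test, which 0.0907% of all genes did.

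Aldh7a1 values were unevenly spread. Gaps between ranked libraries were searched without the lowest and highest few libraries. The widest of these lay between 53.01 and 59.003 CPM, with 35 libraries below it and 49 above. Of those below, 19 were High Drinker and 16 Low Drinker, so both lines had libraries on each side. This gap was a 1.113-fold step, and Aldh1a1 had one nearly as wide, 1.109-fold between 17.8 and 19.7 CPM. Aldh7a1 had 42.1 CPM in the lowest, 61.2 in the median and 88.7 in the highest High Drinker library, against 42.6, 60.5 and 84.1 CPM in Low Drinker libraries.

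The design text names differential variance, so the spread of each gene around the median of its line and sex was compared by limma on absolute deviations of log2 CPM. None of the 9 enzymes passed, against 0.0121% of all genes, and a p above the threshold does not show that the spread was alike. The lowest unadjusted p was that of Aldh2 (0.0690, adjusted p = 0.977), whose mean deviation was 0.04 greater on the log2 scale in High Drinker mice. Nor did any enzyme pass the line by sex interaction, which 0% of all genes did at the adjusted threshold while 953 had an unadjusted p under 0.05. Aldh5a1 had the lowest unadjusted p. In females it averaged 121.8 ± 15.04 CPM in High Drinker mice (n = 21), against 126.3 ± 15.6 CPM in Low Drinker mice (n = 18), and in males 124.8 ± 12.9 (n = 23) and 114.6 ± 15.8 CPM (n = 22). The interaction was -0.17 on the log2 scale (SE 0.073, unadjusted p = 0.0248, adjusted p = 0.774 by edgeR).

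Co-variation was measured on residuals of log2 CPM after line, sex and sheet set, for all 36 pairs of the 9 genes, with two-sided permutation tests of 100000 resamples and Benjamini-Hochberg adjustment over the pairs. Acss2 had 38.99 CPM in the lowest, 55.8 in the median and 79.3 in the highest High Drinker library, against 41.8, 58.1 and 76.5 CPM in Low Drinker libraries. Aldh5a1 had 102.2, 122.3 and 156.2 CPM in High Drinker libraries, against 88.7, 119.5 and 154.6 CPM in Low Drinker libraries. The lines overlapped over most of the range of both genes, and within each line the genes ran against each other, with r = -0.653 and rho = -0.657 over 84 libraries; the permutation p was 1e-05 for each, the smallest the resamples can give, and the adjusted p was 0.00018. The libraries lowest in Acss2, High Drinker 17 and Low Drinker 1, had 38.99 and 41.8 CPM of Acss2 and 131.8 and 150.9 CPM of Aldh5a1. Low Drinker 34, the library lowest in Aldh5a1, had 88.7 CPM of Aldh5a1 and 76.5 CPM of Acss2. The correlation was -0.616 in High Drinker and -0.687 in Low Drinker mice, and -0.653 and -0.641 in sheet sets 1 and 2. It was -0.641 without the 2 libraries farthest from the median of Aldh5a1 and -0.655 without the 5 that stood apart.

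**Figure D3:**
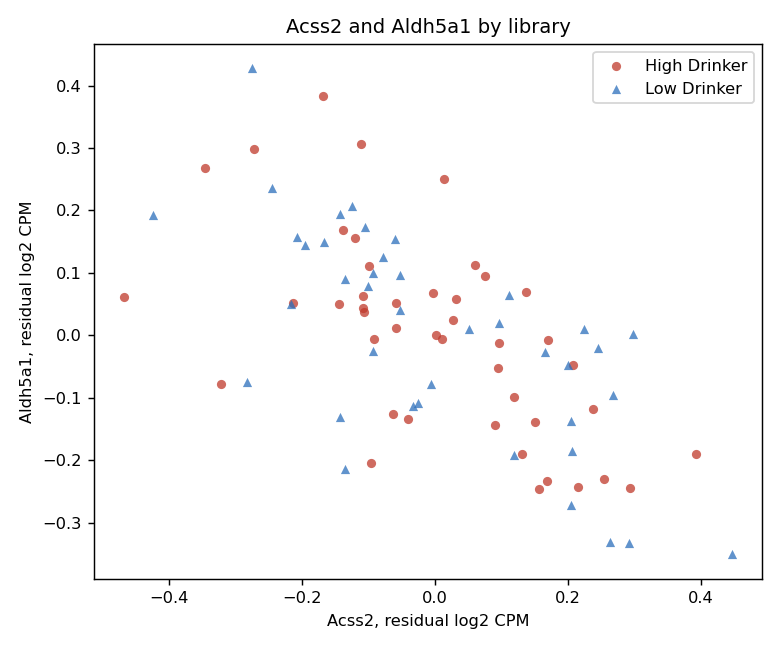
Residual log2 CPM of Acss2 (horizontal axis) against that of Aldh5a1 (vertical axis) after line, sex and sheet set, 1 point per library, red circles High Drinker and blue triangles Low Drinker. Libraries high in Acss2 are low in Aldh5a1, r = -0.653 over 84 libraries, and both lines lie along the same band.

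Acss2 moved together with Aldh3a2, with r = 0.548 and rho = 0.566 (permutation p = 1e-05 for each, adjusted p = 0.00018), and the value was 0.594 and 0.602 within sheet sets 1 and 2 and 0.526 without the 2 farthest libraries. The other 3 pairs past the threshold were weaker. Adh5 and Cat had r = 0.363 and rho = 0.334 (permutation p = 0.00077 and 0.00224, adjusted p = 0.00747 and 0.0202), with 0.230 and 0.484 within the sheet sets and 0.348 without the 2 farthest libraries. Aldh2 and Aldh9a1 had r = 0.359 and rho = 0.311 (permutation p = 0.00083 and 0.00408, adjusted p = 0.00747 and 0.0294), with 0.414 and 0.523 within the sheet sets and 0.315 without the 2 farthest. Without the 5 libraries that stood apart this pair was at 0.283 with an adjusted p of 0.0716. Aldh3a2 and Cat had r = 0.341 and rho = 0.386 (permutation p = 0.00158 and 0.00031, adjusted p = 0.0114 and 0.00372), with 0.371 and 0.300 within the sheet sets and 0.395 without the 2 farthest.

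As a set the enzymes did not move together. The median r of the 36 pairs was 0.02 and the median of its size was 0.129, against 0.205 for the size of r over all pairs of tested genes. The design text also names differential wiring. The difference of r between High Drinker and Low Drinker mice passed for 0 of 36 pairs by permutation of line labels within sex and sheet set, and 2 pairs had an unadjusted p under 0.05. Aldh2 and Aldh5a1 had r = 0.137 in High Drinker and -0.300 in Low Drinker mice (permutation p = 0.0469, adjusted p = 0.844), and Aldh5a1 and Aldh9a1 had 0.334 and -0.102 (permutation p = 0.0370, adjusted p = 0.844).

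Each enzyme was then set against scores of 11 lists of cell type markers, with the same residuals and tests, giving 99 relations. In bulk tissue, fewer cells of a type and less RNA per cell cannot be told apart. In all 38 relations passed, 25 positive and 13 negative, and 30 of them also passed by Spearman's rho. Without the 5 libraries that stood apart, 36 of the 99 passed, 23 positive and 13 negative. Of the first 38, 9 were no longer among them. The share of relations that pass was not computed over all tested genes. The count of 38 is therefore not a trait shown to be particular to these enzymes. Acss2 ran with the score of cortical glutamatergic neurons (r = 0.805, rho = 0.823) and against that of medium spiny neurons (r = -0.758, rho = -0.783). Aldh5a1 did the reverse, at 0.781 (rho = 0.780) with medium spiny neurons and -0.755 (rho = -0.788) with cortical neurons. The permutation p of these 4 relations was 1e-05 by either measure. Without the 2 libraries farthest from the median of the marker score, r was 0.795 and -0.777 for Acss2 and 0.775 and -0.791 for Aldh5a1. The cortical and medium spiny scores were themselves opposed, at r = -0.795. Aldh3a2 went with the cortical score (r = 0.518, rho = 0.530) and against that of endothelial and mural cells (r = -0.509, rho = -0.560).

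Aldh1a1, Cat, Aldh2 and Adh5 had their strongest relation with a glial or vascular score. Aldh1a1 ran with astrocytes at r = 0.581 and rho = 0.557 (permutation p = 1e-05 for each) and with oligodendrocytes at r = 0.420 and rho = 0.412. Cat ran with oligodendrocytes at r = 0.554 and rho = 0.487 (permutation p = 1e-05 for each), with 0.355 and 0.771 within the sheet sets and 0.518 without the 2 farthest libraries. Aldh2 ran with endothelial and mural cells at r = 0.479 and rho = 0.403, at 0.602 in High Drinker and 0.263 in Low Drinker mice, a difference that was not tested. Adh5 ran with microglia at r = 0.447 and rho = 0.396 and with oligodendrocytes at r = 0.443 and rho = 0.425. Aldh9a1 had its strongest relation with the cortical score, at r = -0.351 and rho = -0.292. Aldh7a1 passed with none of the 11 scores, its values lying between -0.120 and 0.202. For the relations named here the adjusted permutation p was at most 0.00459 for r and 0.0262 for rho, and each kept its sign within sheet sets 1 and 2. Without the 2 farthest libraries r of Aldh1a1 was 0.560 with astrocytes and 0.422 with oligodendrocytes, that of Aldh2 with endothelial and mural cells was 0.446, that of Adh5 was 0.376 with microglia and 0.404 with oligodendrocytes, and that of Aldh9a1 with the cortical score was -0.288.

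**Figure D4:**
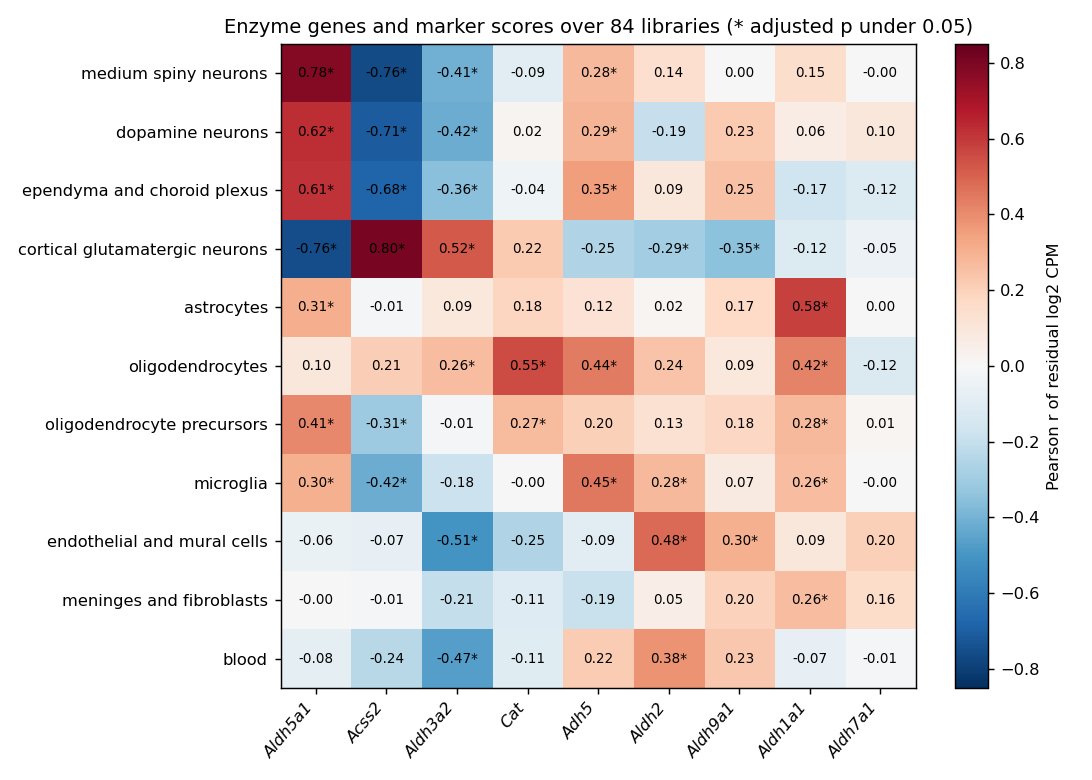
Pearson r between residual log2 CPM of 9 enzymes (columns) and 11 marker scores (rows) over 84 libraries, red positive and blue negative, with an asterisk where the adjusted permutation p is under 0.05. Aldh5a1 and Acss2 have opposite signs in the upper 4 rows, and the Aldh7a1 column holds no asterisk.

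The 4 scores of medium spiny neurons, cortical neurons, astrocytes and oligodendrocytes were fitted together to each enzyme. They took up 81.1% of the residual variance of Acss2 and 68.5% of that of Aldh5a1, against a median of 22.9% over all tested genes. The share was between 36.3% and 39.7% for Aldh1a1, Aldh3a2, Cat and Aldh9a1, 24.8% for Adh5, 19.7% for Aldh2 and 1.93% for Aldh7a1. With these scores as covariates, r of Acss2 and Aldh5a1 was 0.07 (adjusted p = 0.633) and r of Acss2 and Aldh3a2 was 0.03 (adjusted p = 0.815). Aldh3a2 and Aldh5a1, at r = -0.170 before (adjusted p = 0.329), were at 0.488 after the scores were taken out (adjusted p = 0.00036). In all 6 pairs passed then, and none of the first 5 was among them: Adh5 and Cat were at 0.265, close to the threshold (adjusted p = 0.0586), Aldh2 and Aldh9a1 at 0.206 (adjusted p = 0.158) and Aldh3a2 and Cat at 0.0634 (adjusted p = 0.633). Cat and Acss2, at 0.235 before (adjusted p = 0.159), turned to -0.330 (adjusted p = 0.0252), and Adh5 and Aldh5a1, at 0.0639 before (adjusted p = 0.795), to -0.285 (adjusted p = 0.0473). The other 3 pairs that passed were negative before and after the scores were taken out: Aldh2 and Aldh5a1 (-0.375 after, adjusted p = 0.00648), Adh5 and Acss2 (-0.305, adjusted p = 0.0395) and Aldh1a1 and Aldh9a1 (-0.300, adjusted p = 0.0395). The line difference of Cat was as large with the 4 scores in the model, at 0.10 on the log2 scale (SE 0.025, adjusted p = 0.00586 by edgeR, where 4.61% of all genes passed).

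**Figure D5:**
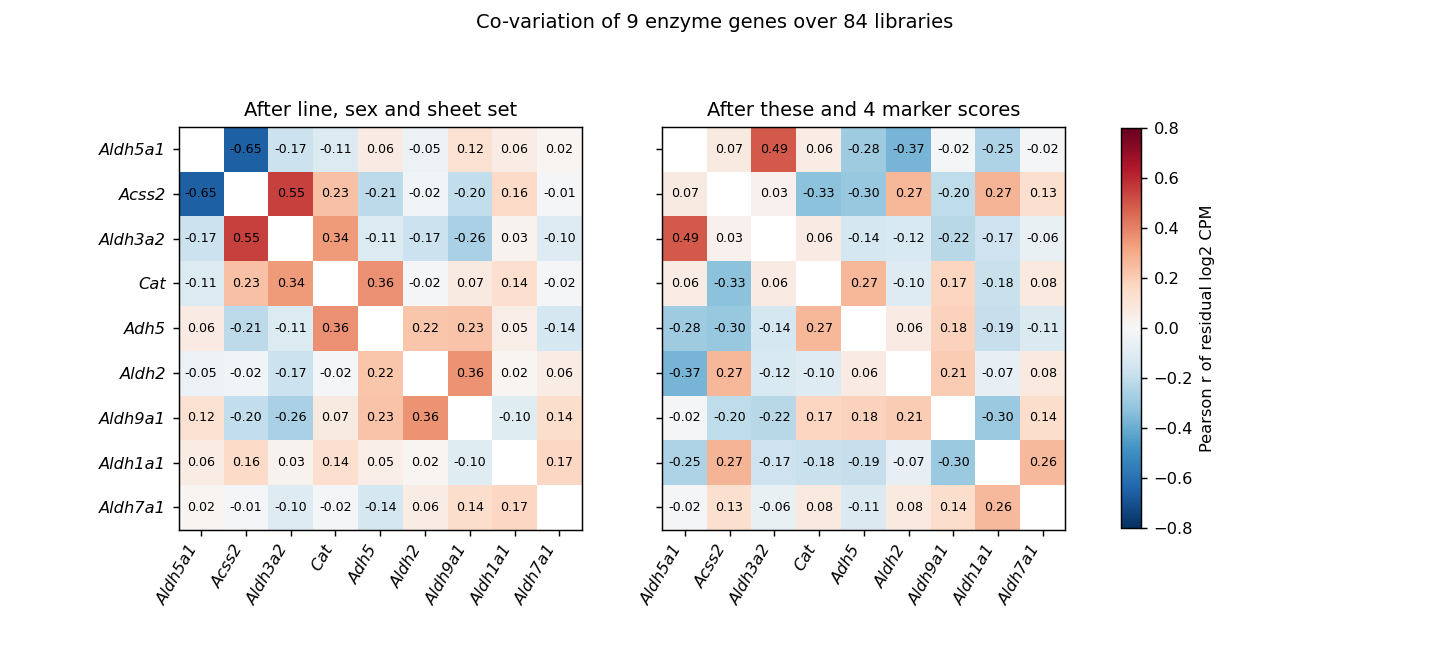
Pearson r for the 36 pairs of 9 enzymes over 84 libraries, on residuals of line, sex and sheet set (left) and on residuals that also leave out 4 marker scores (right), red positive and blue negative. Acss2 and Aldh5a1 are at -0.65 on the left and 0.07 on the right, and Aldh3a2 and Aldh5a1 are at -0.17 and 0.49.

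The genes most alike in pattern were named by the highest r with each enzyme among 11666 tested genes with a mean of at least 5 CPM, as a description over 84 libraries that share depth and dissection. For Acss2 these were Camk2g (0.913), Adra1b (0.911) and Hapln4 (0.903). For Aldh5a1 they were Gad2 (0.911), Rbms3 (0.893) and Abat (0.890), and for Aldh3a2 they were Prepl (0.840), Rab5b (0.822) and Dnajc6 (0.813). Adh5 was closest to Eif3h (0.806), Cct5 (0.789) and Psmb1 (0.770), Aldh2 to Spns1 (0.748), Bcl7b (0.738) and Stard3 (0.730), and Aldh1a1 to Fndc5 (0.699), Pmp22 (0.664) and S100b (0.645), the last being 1 of the astrocyte markers used above. Cat was closest to Cnksr3 (0.672), Slain1 (0.624) and Erbb3 (0.619), and Aldh9a1 to Idh2 (0.632), Amigo2 (0.630) and Appl2 (0.624). Aldh7a1 had no close match: Poli (0.469), 4930503L19Rik (0.436) and Commd10 (0.400) came first, and all 3 lie on chromosome 18 like Aldh7a1 itself, 9.55 to 13.999 Mb away. Within sheet sets 1 and 2 Poli was at 0.440 and 0.525, 4930503L19Rik at 0.478 and 0.386, and Commd10 at 0.539 and 0.101. Of the genes named here Commd10 and S100b differed most between these sets, S100b being at 0.762 and 0.284 with Aldh1a1.

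The lists of related genes held few line differences past the adjusted threshold, which 3.94% of all tested genes passed; 18.3% of all tested genes had an unadjusted p under 0.05. Of 14 tested alcohol and aldehyde dehydrogenases outside the members, 0 passed by edgeR and 6 had an unadjusted p under 0.05. That share was larger than among all genes, but the list was not tested as a set. A positive sign was found in 9 of the 14, with a median log2 fold change of 0.05 against -0.0016 over all tested genes. Aldh1b1, another mitochondrial acetaldehyde dehydrogenase, averaged 16.4 ± 2.74 CPM in High Drinker mice, against 14.4 ± 3.02 CPM in Low Drinker mice (adjusted p = 0.0891). Among 11 genes of acetate and acetyl-CoA use 0 passed and 3 had an unadjusted p under 0.05. Of the 8 genes of the GABA shunt, in which Abat makes the succinic semialdehyde that Aldh5a1 oxidises, 0 passed at either threshold. Retinoic acid synthesis and response (19 genes), other cytochrome P450 genes and reductases of brain (15 genes) and partners of lysine, carnitine and sphingosine metabolism (10 genes) also had 0 adjusted calls, with 0, 1 and 1 at the unadjusted threshold.

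Hydrogen peroxide and glutathione handling, the list nearest to catalase, had 0 higher and 3 lower calls among 21 tested genes, where 2.2% of all genes were called lower, and 5 of the 21 had a positive sign. Gsr, glutathione reductase, averaged 30.0 ± 2.59 CPM in High Drinker mice, against 32.9 ± 2.87 CPM in Low Drinker mice, or -0.15 on the log2 scale (SE 0.027), with an adjusted p of 9.48e-05 by edgeR. In 38 of 44 High Drinker mice it fell short of the median of Low Drinker mice. Gpx4, a glutathione peroxidase for lipid peroxides, averaged 146.9 ± 15.2 and 160.5 ± 24.5 CPM in High Drinker and Low Drinker mice (log2 fold change -0.14, adjusted p = 0.0300), and Prdx5, a peroxiredoxin, 156.0 ± 13.5 and 170.0 ± 24.3 CPM (-0.13, adjusted p = 0.0361). Without the 5 libraries that stood apart the adjusted p was 0.140 for Gpx4 and 0.166 for Prdx5. The median log2 fold change of the list was -0.06.

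Peroxisome biogenesis and oxidases had 1 higher and 2 lower calls among 24 tested genes, where 1.74% of all genes were called higher and 2.2% lower. Pex10 and Pex7, factors for protein import into peroxisomes, were lower, at log2 fold changes of -0.15 and -0.09 (adjusted p = 0.000527 and 0.0299). In monoamine breakdown 1 of 8 genes was called, where 3.94% of all genes were, Akr7a5, an aldo-keto reductase, at -0.14 (adjusted p = 0.0447, and 0.189 without the 5 libraries). Of 93 tested marker genes 3 passed (3.23%, against 3.94% of all genes) and 11 had an unadjusted p under 0.05, but some lists lay to one side. In the medium spiny neuron list 14 of 15 genes had a positive sign, and the median was 0.12 on the log2 scale, against -0.0016 over all tested genes. In the list of meninges and fibroblasts 8 of 8 had a positive sign, and the median was 0.12. All 6 oligodendrocyte precursor markers were positive (median 0.11), and 4 of them had an unadjusted p under 0.05. The median of the 5 tested dopamine neuron markers was 0.17, with 3 positive, and 1 of 10 oligodendrocyte markers was positive (median -0.05). In the medium spiny, meninges, dopamine and oligodendrocyte lists 0 genes had an unadjusted p under 0.05 by edgeR. Markers of a list can vary together, so their signs are not independent counts. Of the scores of these 5 lists, precursors included, Cat passed with those of oligodendrocytes and of oligodendrocyte precursors. The relation with precursors had r = 0.267 (permutation p = 0.0138, adjusted p = 0.0391), did not pass by rho (0.204, adjusted p = 0.12) and was at 0.183 without the 2 farthest libraries and at 0.200 without the 5 that stood apart (adjusted p = 0.153). The marker genes past the adjusted threshold included the oligodendrocyte precursor marker Cspg4 (log2 fold change 0.21) and the mural cell marker Abcc9 (0.20), and none of the 10 oligodendrocyte markers. Without the 5 libraries the adjusted p of Abcc9 was 0.0513. With the 4 marker scores in the model Gsr, Pex10 and Pex7 passed again (adjusted p = 0.000134, 8.99e-05 and 0.0294 by edgeR), and Prdx5, Gpx4 and Akr7a5 did not, at 0.0993, 0.0708 and 0.112.

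The members lie at 10 separate places in the genome (mm10, gene bounds as deposited). Cat spans chr2:103453849-103485160 with 13 merged exons, and 1 of 15 tested genes starting within 1 Mb of its start was called, against 3.94% of all genes, Caprin1, which was higher in High Drinker mice. Aldh9a1, at chr1:167349991-167368532, had 2 higher among 12 such neighbours, Tada1 and Gm16701, and Acss2, at chr2:155517948-155585724, had 1 lower among 39, Cnbd2. Aldh5a1 spans chr13:24907579-24937661 and had 0 among 15, as did Aldh7a1 (chr18:56509687-56572951) among 8, Aldh1a1 (chr19:20601961-20643462) among 6, Adh5 (chr3:138443093-138455499) among 12 and Aldh3a2 (chr11:61223417-61267464) among 36. Aldh2, at chr5:121566027-121593824, had 1 lower among 39, Gm26205, and Cyp2e1, at chr7:140763739-140774975, had 1 higher and 2 lower among 54, which were Echs1, Zfp941 and Deaf1. These neighbours are named because they were called, after their values were seen. Exons of Aldh2, Aldh5a1, Aldh7a1 and Acss2 overlap genes on the other strand, and with counting by strand not stated those reads cannot be told apart.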

How the data were processed

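Ventrolateral striatum was dissected by hand from frozen brains, RNA was taken with Trizol, cDNA was amplified with an Ovation kit and libraries were made with a TruSeq DNA kit, per the labels' protocols; reads were single-end and 100 bp long, 6 libraries per lane. Amplified cDNA holds duplicates that gene counts cannot tell apart, so floors cover counting error only. The deposited table holds raw counts of reads for each gene beside its summed exon length, another measure in bases, and has the form that featureCounts writes. FastQC, STAR, featureCounts from Subread and edgeR with build mm10 are named in the submitters' processing notes; no version is stated, nor how strand and reads with several matches were handled. Of 43629 genes, 42462 matched a symbol in the GENCODE annotation, 12117 had no read, and 0 entries (0% of counts) named no gene. Lines and sex come from the labels; replicate numbers follow accession order and pair nothing. Sheet sets are read from the numbers in the titles and are an inference. No library pair of 3486 was identical, and the lowest chi-square per gene of a pair was 6.68.

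Line, sex and interaction were tested with the quasi-likelihood F-test of edgeR 4.0.16 (R 4.3.3; filterByExpr by line, TMM scaling, model with sheet set, sex and line), with Benjamini-Hochberg adjustment over 16537 genes at 0.05. Variability used limma 3.58.1 on log2 CPM with a prior count of 2. Correlations used permutation with 100000 resamples in numpy 2.4.6. For pairs, the 2 farthest libraries were those farthest from the median of the gene that comes first in the opening list. For relations with scores, they were those farthest from the median of the score, and libraries extreme in the enzyme were not sought out. For the relations of enzymes with scores, a marker score is the mean of z-scored residual log2 CPM of a list, members left out. Where 4 scores were fitted together or used as covariates, and where scores were compared with each other, they were built from z-scored log2 CPM. Line, sex and sheet set had not been taken out of that log2 CPM beforehand. For the variance shares and the comparison of scores, line, sex and sheet set were taken out of the built scores. Where scores were covariates, line, sex and sheet set were terms of the same model. DESeq2 1.42.0, limma-voom, 5 surrogate variables from sva 3.50.0, a prior count of 0.5, RLE scaling, no filter, other sheet set terms, and subsets of libraries were tried as alternatives. The fits were tested on simulated data, with 50 changed genes at each size. Of 1.25-fold changes, the line test recovered 82%, the sex test 80% and the interaction test 44%. The simulated counts of each gene were drawn independently around its mean, without sheet set effects or variation shared between genes. Changes below 1.25-fold were not simulated, so these rates do not cover differences as small as that of Cat (7.12%). The variability test recovered 0% of 1.5-fold and 36% of 2-fold changes in spread, so it could miss differences of such sizes.

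The enzymes, the gene lists, the 5 libraries left out as standing apart and the tests were chosen with earlier results of these data known. Named genes are all 10 enzymes, list genes past the threshold (up to 5 a list, mean of at least 1 CPM), the 3 most alike genes of each enzyme, and set markers. Outside this rule are Aldh1b1, a list gene that did not pass, the called neighbours, and the gene most opposed to each enzyme. Tmlhe of the carnitine list was not matched. Promoter sequences of 8 enzymes were matched in the RefSeq table. Of the list genes called, 2 are not reported here by name.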

Additional observations from a re-analysis of the deposited data

How the results depend on the processing

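No paired analysis was possible because the labels give no replicate numbers shared between the lines. Catalase stayed higher in High Drinker mice in 14 of 14 alternatives and past the threshold in 8. It missed it with no filter on low counts (log2 fold change 0.0975), in sheet set 1 (0.0843) and set 2 (0.159) alone, in females (0.0465) and males (0.160) alone, and without the 5 libraries that stood apart (0.0962). The subsets hold fewer animals, and for the missing filter the adjustment covers more genes. Whether the calls were lost for these reasons was not tested. The other 8 enzymes passed in 0 of 112 alternatives (smallest adjusted p 0.148). The sign of their small line differences turned in 16 of them. In females alone these were Acss2 (0.0315), Aldh5a1 (-0.0623) and Aldh9a1 (-0.0279), and in males alone Aldh1a1 (-0.0291) and Aldh3a2 (-0.0129). In sheet set 1 they were Aldh1a1 (-0.00769) and Aldh7a1 (0.0350), and in set 2 Aldh3a2 (-0.0400). Without the sheet set term they were Aldh3a2 (-0.000176) and Aldh7a1 (0.00537), and with sets 2 and 3 merged Aldh7a1 (0.00357). Without the 5 libraries they were Aldh3a2 (-0.00643) and Aldh7a1 (0.0122). With 5 surrogate variables they were Aldh3a2 (-0.00544) and Aldh5a1 (-0.00613), and with 4 marker scores Aldh5a1 (-0.0134). Signs also turned for the interaction of Aldh3a2 under RLE (-0.00049), the sex difference of Acss2 (0.0246) and the variability of Aldh3a2 (0.00053) and Aldh9a1 (0.0118) without the 5 libraries. With marker scores taken out, r turned to 0.488 for Aldh3a2 and Aldh5a1, -0.330 for Cat and Acss2 and -0.285 for Adh5 and Aldh5a1, all past the threshold, and to 0.0695 for Aldh5a1 and Acss2. Over all genes, 651 line calls became 77 in set 1, 74 in set 2, 35 in females, 107 in males, 404 without the 5 libraries and 2221 with surrogate variables. Variability calls were 5 at a prior count of 0.5 and 0 without the 5 libraries, against 2. Pairs of enzymes past the threshold were 3 in set 2, against 5. The causes of these changes were not tested.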

Other observations

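Among the 20 genes most alike to Aldh7a1 over the 84 libraries, 9 lay on chromosome 18, its own, which held 2.81% of the 11666 genes compared; the gene most opposed to it was Tnfaip8 at r = -0.482. For Cat, 5 of the 20 most alike genes lay on its own chromosome 2, which held 8.07% of them. For the other 7 enzymes the number was 0 or 1 of 20. These counts were made after the values had been seen and are given as a description, with no test.

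The most opposed genes of the other enzymes were Nsg2 for Acss2 (r = -0.893), Plekho1 for Aldh5a1 (-0.887), Nab1 for Aldh2 (-0.852), Begain for Aldh3a2 (-0.797), Tnrc6c for Adh5 (-0.777), Tlk1 for Aldh9a1 (-0.716), St6galnac5 for Aldh1a1 (-0.657) and Hps1 for Cat (-0.509).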
